A study of Homo sapiens with 5 samples.

Results

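The line that overexpresses ZEB2 was compared with its LACZ control, gene by gene, on 1 Affymetrix array per line. Both lines derive from HMLE, human epithelial cells of the breast that were made to grow without limit. The control is labelled as a control cell and named for LACZ, a bacterial reporter gene. The series holds 5 arrays in all, and the other 3 lines overexpress FOXQ1, SNAI1 or TWIST1, which are also transcription factors of the epithelial to mesenchymal transition (EMT). Cells received no treatment and were harvested at near confluence, per the labels. The sources used here do not give the vector, its promoter or whether a line is 1 clone. The difference was taken for every gene named by a probe set with 1 symbol. This gave 15256 symbols, and 14912 genes with a matching RefSeq record on the same chromosome were analysed. They lie on chromosomes 1 to 8 and part of 9.

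ZEB2 is a zinc finger and homeodomain repressor that binds pairs of E-boxes in the promoters of epithelial genes. In development it acts in neural crest cells and neurons. In EMT it is known for shutting down E-cadherin and junction genes, and microRNAs of the miR-200 family restrain it in epithelial cells. Each value below is a deposited level, read as log2, or the ZEB2 level minus the LACZ level on that scale. Large differences with one side near the bottom of the scale are not exact ratios, and levels of different genes are not compared. With 1 array per line there was no replicate error, no test was possible, and no p-value is given. Every statement of higher or lower therefore describes these arrays. Fewer cells with a transcript and less transcript per cell cannot be told apart in such data. The array medians over all probe sets lay between 4 and 4.05, and the median difference over all genes was 0.

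A gene was called higher or lower when its 2 levels were 2-fold or more apart (1 on the log2 scale) and the brighter array reached a level of 4.72. That floor is the median over genes of the mean level on the 5 arrays, and 7996 genes reached it on either array. By this rule 955 genes were higher on ZEB2, 6.4% of the 14912, and 644 were lower, 4.32%. Of the 7996 genes at the floor these were 11.9% and 8.05%. Only genes at the floor could be called, so these shares are the reference for the list counts below. Differences of 4 or more on the log2 scale were seen for 69 higher and 49 lower genes. The lower side reached further from 0 than the higher side, with MAL2 at -13.18 and UCHL1 at 10.28. Probe sets of one gene did not always move alike. Of 80 genes called higher that had several probe sets, 61 had every probe set above 0, and of 42 called lower 23 had every one below 0.

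**Figure D1:**
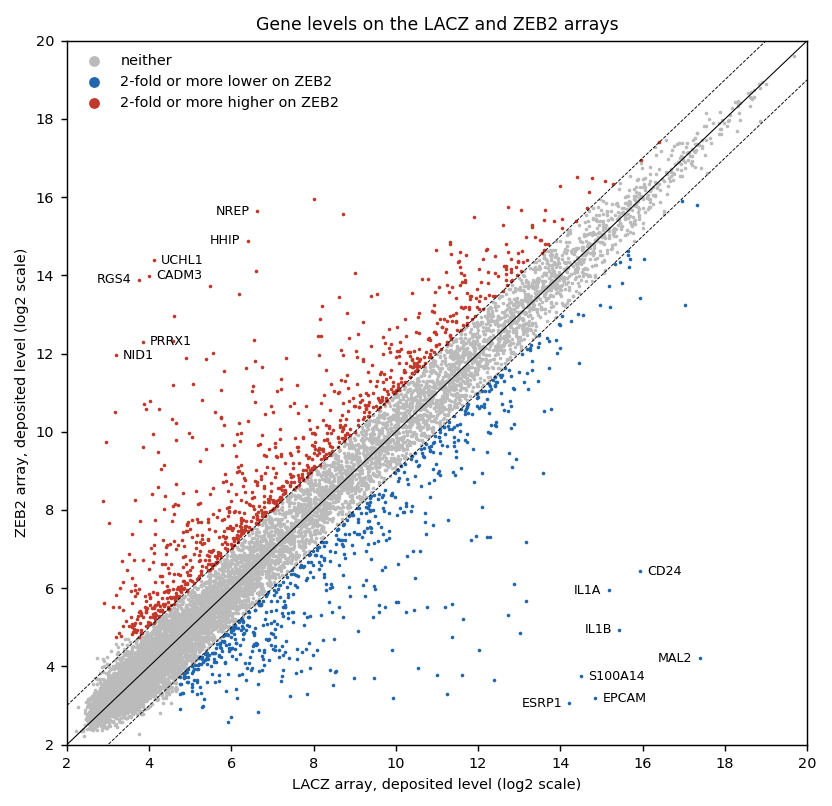
Level of each of 14912 genes on the LACZ array (x axis) and the ZEB2 array (y axis), both on the deposited log2 scale. The solid line marks equal levels and the dashed lines a log2 difference of 1; red points are the 955 genes called higher and blue points the 644 called lower, and the 7 with the largest difference on each side are named.

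ZEB2 itself lies on chromosome 2 (144384081 to 144520119, GRCh38.p14). Its own level was 3.57 on LACZ and 7.39 on the ZEB2 array, a difference of 3.82. It was 6.85 on FOXQ1, 6.23 on SNAI1 and 7.03 on TWIST1, so the ZEB2 array lay only 0.36 above the nearest other array. Whether the probes see the introduced copy was not known here. Of the 17 measured EMT factors 4 were higher, 1 was lower and 12 were neither, with a median difference of 0.09. PRRX1, a mesenchymal homeobox factor, went from 3.84 to 12.3, and TWIST1, a helix-loop-helix EMT factor, from 5.55 to 8.55. GLI2, a hedgehog effector, went from 3.6 to 4.87, but its difference of 1.27 was 0.84 with the median of its probe sets. MYB, a factor of progenitor cells, was lower, from 6.75 to 3.91, a difference of -2.84, or -1.47 with the median of its probe sets. SNAI2, an EMT factor of basal mammary cells, was at 15.55 on LACZ and 15.72 on ZEB2, and FOXQ1 was at 3.6 and 3.58. The 3 miR-200 genes of chromosome 1, MIR200A, MIR200B and MIR429, lay between 3 and 4.09 on both arrays, below the floor, so no order was measured for them.

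Epithelial surface and vesicle traffic genes had the lowest median of all the lists, which were chosen with earlier results of these data known. The rank and the counts below therefore describe the list and are no independent support. Of 21 measured members 20 reached the floor, 16 were lower and 1 was higher. Among all genes at the floor 8.05% were lower and 11.9% higher. The list median was -4.63, against a median of 0 over all genes and 0.03 over those at the floor. EPCAM, an epithelial adhesion molecule, went from 14.85 on LACZ to 3.18 on ZEB2, and MAL2, a protein of apical transport, from 17.39 to 4.21. CD24, a surface glycoprotein used to sort mammary progenitors, went from 15.93 to 6.43, a difference of -9.5. The small GTPase gene RAB25, of vesicle recycling, differed by -8.74, and S100A14, a calcium-binding protein, by -10.74. FGFBP1, a carrier of fibroblast growth factors, differed by -8.17, FAM83B by -7.82 and HOOK1, a microtubule tether of vesicles, by -7.41. MACC1, a regulator of the receptor gene MET, differed by -7.95, or by -4.51 with the median of its probe sets. Smaller differences were those of SDC1, the proteoglycan syndecan, at -2.82 and PROM2, prominin, at -1.6. PLA2R1, a phospholipase receptor, was the 1 higher member, at 1.53.

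Junction genes were split. In the tight and adherens junction list 7 of 17 measured members were lower and 2 higher, and the list median was -0.48. Of these 17 members 14 reached the floor. OCLN, the tight junction protein occludin, went from 12.86 to 6.11, and MARVELD2, its relative tricellulin, from 12.28 to 7.31. The difference for MARVELD2 was -4.97, or -2.78 with the median of its probe sets. PATJ, a scaffold of the polarity complex, differed by -4.98, and AFDN, afadin, an adaptor of adherens junctions, by -1.8. Among the claudins, which seal tight junctions, CLDN1 went from 12.22 to 7.3, CLDN4 from 6.11 to 3.42 and CLDN11 from 6.74 to 4.27. CLDN11 was not uniform across the factor lines, with 10.66 on FOXQ1 and 10.53 on TWIST1. In contrast CLDN12 was at 9.31 and 10.4, a difference of 1.09, or 0.99 after quantile normalization, and the adhesion molecule NECTIN3 went from 6.57 to 11.81. CTNNB1, beta-catenin, was at 13.2 and 13.35.

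Of 7 measured desmosome and hemidesmosome genes 2 were lower and 1 was higher. All 7 reached the floor, where 8.05% of all genes were lower and 11.9% higher. DSP, the plaque protein desmoplakin, went from 12.81 to 10.09 and PERP, a desmosomal tetraspan protein, from 13.76 to 10.57. PKP1, the plaque protein plakophilin, was at 8.25 on LACZ and 9.79 on ZEB2, and between 7.3 and 8.57 on the other 3 arrays. The hemidesmosome members ITGA6 and DST were at 14.23 and 14.95 on ZEB2, with differences of -0.53 and -0.22. Of 6 measured gap junction genes only GJB5, a connexin of stratified epithelia, was called, at -4.41. The connexin of mesenchymal and basal cells, GJA1, differed by -0.48.

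Epithelial transcription and splicing regulators were lower in 7 of 12 measured members, with a median of -1.46, and 1 was higher. The floor was reached by 9 of the 12. ESRP1, which sets epithelial splicing, went from 14.22 to 3.06. The grainyhead factors GRHL1, GRHL2 and GRHL3, which maintain epithelial identity, differed by -1.75, -4.65 and -1.35. TFAP2A, an ectodermal factor, went from 12.56 to 10.99. TRPS1, a GATA-type repressor, was higher by 1.48, or 0.42 with the median of its probe sets. ELF3 and RBM47 were below the floor on both arrays. Of 8 measured mammary epithelial markers 7 reached the floor on LACZ and 6 on ZEB2, and 5 were lower on ZEB2, among them EGFR at -1.1. EPCAM was below the floor on ZEB2, whereas ITGA6, EGFR, PERP and DSP lay between 10.09 and 14.23 there. MUC1, a mucin of the apical surface, was at 6.77 and 7.72.

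The promoters of the lower genes were searched for the E-box of ZEB2 and its relatives, CACCTG, on both strands, so as CACCTG or CAGGTG, which do not overlap each other. RefSeq promoters (GRCh38.p14, 250 bases before to 50 after the first listed start of a gene) were used. The motif stood in 26.3% of the 376 promoters of protein-coding genes called lower and in 16.8% of the 654 of genes called higher. It stood in 16.9% of 3256 promoters of protein-coding genes at the floor that were neither, and in 20.6% of all 27305 promoters in the table. The share was 22.2% for genes lower by 1 to 2, 25% of 104 promoters for those lower by 2 to 4, and 55.3% of 38 for those lower by 4 or more. For genes higher by 4 or more it was 9.8% of 51. Mean GC content was 60.2% in the most strongly lower group and 60.1% in the most strongly higher group. It was 62.9% in the group that was neither, 64.7% for genes lower by 1 to 2 and 57.2% over all promoters. The part of base composition in the motif shares was not tested. These shares are a description, without a test, and a match is not a binding site. The bands of difference were chosen after the values were seen.

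The promoters below belong to the genes of the junction and epithelial surface lists that were among the 20 with the largest lower difference and that held the motif. They are shown so that the E-box can be seen at its place, in capitals, 5′ to 3′ on the strand of the gene. S100A14 lies on the minus strand (chr1:153616276-153616575) and has 1 match, 14 bases before the start. RAB25 lies on the plus strand (chr1:156060910-156061209) and has 2, one 41 bases before the start and one from base 38 after it. MACC1 (chr7:20217335-20217634, minus strand) has 3, at 241, 214 and 59 bases before the start. HOOK1 (chr1:59814699-59814998, plus strand) has 1 at 80 bases before the start and OCLN (chr5:69492297-69492596, plus strand) has 1 at 33 bases before it.
S100A14: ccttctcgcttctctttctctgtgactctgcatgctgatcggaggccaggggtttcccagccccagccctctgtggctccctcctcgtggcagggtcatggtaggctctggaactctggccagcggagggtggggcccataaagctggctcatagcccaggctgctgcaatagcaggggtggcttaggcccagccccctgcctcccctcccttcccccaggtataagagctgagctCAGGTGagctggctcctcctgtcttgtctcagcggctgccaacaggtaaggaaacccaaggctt
RAB25: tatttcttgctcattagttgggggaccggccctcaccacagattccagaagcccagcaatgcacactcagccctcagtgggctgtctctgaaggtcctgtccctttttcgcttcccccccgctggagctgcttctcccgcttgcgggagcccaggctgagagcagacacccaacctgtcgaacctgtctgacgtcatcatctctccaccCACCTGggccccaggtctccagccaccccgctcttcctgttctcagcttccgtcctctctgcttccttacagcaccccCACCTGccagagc
MACC1: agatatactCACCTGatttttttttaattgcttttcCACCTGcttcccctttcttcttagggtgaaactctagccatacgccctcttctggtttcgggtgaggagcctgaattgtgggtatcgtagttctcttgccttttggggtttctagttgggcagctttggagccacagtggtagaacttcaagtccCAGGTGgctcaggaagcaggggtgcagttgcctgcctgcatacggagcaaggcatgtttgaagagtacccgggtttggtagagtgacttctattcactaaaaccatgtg
HOOK1: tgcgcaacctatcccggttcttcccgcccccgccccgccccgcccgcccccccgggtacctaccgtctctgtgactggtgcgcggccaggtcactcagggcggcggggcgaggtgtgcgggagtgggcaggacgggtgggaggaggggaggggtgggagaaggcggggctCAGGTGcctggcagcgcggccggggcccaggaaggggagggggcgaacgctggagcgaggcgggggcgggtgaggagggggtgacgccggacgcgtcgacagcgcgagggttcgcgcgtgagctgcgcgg
OCLN: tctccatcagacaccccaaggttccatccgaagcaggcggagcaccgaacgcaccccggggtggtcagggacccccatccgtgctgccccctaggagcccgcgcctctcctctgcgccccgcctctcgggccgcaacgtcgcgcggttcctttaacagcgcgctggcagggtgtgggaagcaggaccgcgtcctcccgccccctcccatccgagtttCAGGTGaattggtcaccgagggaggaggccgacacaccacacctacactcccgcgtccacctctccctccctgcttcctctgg

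Of the 20 genes with the largest lower difference 14 had a promoter in the table and 8 of these held the motif. The same count for the 20 with the largest higher difference was 1 of 17, in IGFBP3. MAL2 and ESRP1, on chromosome 8, and EPCAM had no promoter in the table. Each of the 5 promoters shown has a match within 100 bases of the start, but they were picked for holding the motif. How often other promoters have a match so near the start was not counted. The lower levels of these 5 genes were not seen on ZEB2 alone. S100A14, at 14.49 on LACZ and 3.75 on ZEB2, was at 3.7 on FOXQ1, 3.48 on SNAI1 and 3.68 on TWIST1. HOOK1, at 12.73 on LACZ and 5.32 on ZEB2, was at 5.32, 5.2 and 5.41 on these arrays. The motif shares therefore describe genes lower against LACZ, and nothing in them was shown to be particular to the ZEB2 line.

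**Figure D2:**
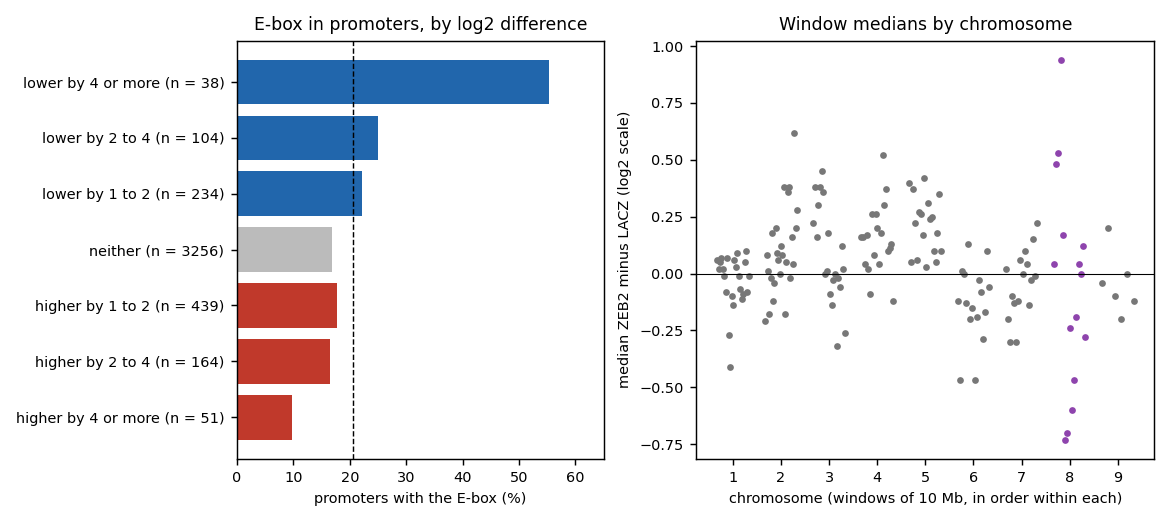
Left, share of promoters that hold CACCTG on either strand (x axis, percent) for protein-coding genes grouped by their ZEB2 minus LACZ difference, with the number of promoters; the dashed line is the 20.6% of all promoters, and the top bar (lower by 4 or more) is at 55.3%. Right, median ZEB2 minus LACZ difference (log2 scale) in each of 158 windows of 10 Mb, in order along each chromosome; chromosome 8, in purple, holds both the highest median, 0.94, and the lowest, -0.73.

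Members of the epidermal differentiation complex and the S100 family build the cornified envelope or bind calcium. Of 31 measured members 21 reached the floor, 7 were lower and none was higher, with a median of -0.12. S100A8 and S100A9, partners in calprotectin, went from 7.43 to 3.24 and from 7.26 to 4.3. IVL, involucrin, went from 7.3 to 4.37 and SPRR1A, a cornified envelope precursor, from 5.85 to 4.09. S100A4 and S100A6, linked to motile and mesenchymal cells, differed by 0.76 and 0.28.

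In the interleukin 1 family the 2 ligands that were called were lower and 3 receptors were higher. IL1B and IL1A, the inflammatory ligands, went from 15.43 to 4.94 and from 15.17 to 5.94. IL1R1, the signalling receptor, went from 6.51 to 11.05, while its partner chain IL1RAP differed by -1.59, or -0.98 with the median of its probe sets. IL1RL2, the receptor of the IL36 ligands, differed by 1.84 and IL1RL1, that of IL33, by 1.13. Over the 18 measured members, 10 of them at the floor, 3 were higher and 3 lower. The receptors IL1R1, IL1RL2 and IL1RL1 are consecutive on chromosome 2 among the genes at the floor.

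Among 25 measured chemokine, cytokine and NF-kB genes, 16 of them at the floor, 6 were lower and 3 higher. The list median was -0.09. IL6, an inflammatory cytokine, went from 7.37 to 5.24 and the neutrophil chemokine CXCL8 from 9.23 to 7.44. CXCL1, of the same chemokine cluster, was at 12.77 and 12.93, and CXCL3 was at 7.2 and 8.31. TSLP, an epithelial cytokine of allergic inflammation, went from 3.36 to 6.16 and had 3.21 to 4.93 on the other 3 factor arrays. The NF-kB subunits REL and NFKB1 differed by -1.85 and -1.3.

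Interferon-stimulated genes were lower in 9 of 25 measured members, of which 21 reached the floor, and 1 was higher. IFI44 went from 10.58 to 6.96, while its neighbour IFI44L went from 3.46 to 6.47. The antiviral modifier ISG15 was at -2.53, the RNA sensor IFIH1 by -2.09 and IRF1, an interferon regulatory factor, by -2.52. The HLA class I list, with its antigen processing genes, held 2 lower members among 16, and its median was -0.44. All 16 reached the floor, so that count is near the 8.05% lower among all genes there. These were HLA-F, from 12.25 to 10, and the peptide transporter subunit TAP2, from 7.87 to 6.68. HLA-B was at 7.33 and 7.23, and the immunoproteasome subunit PSMB9 at 12.97 and 12.32.

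**Figure D3:**
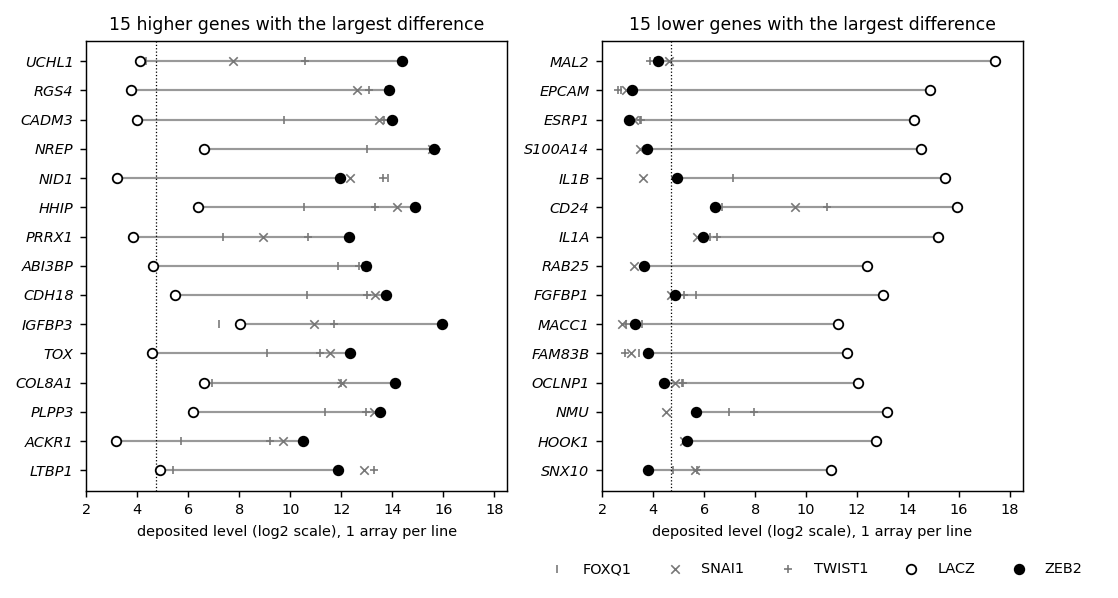
Levels (x axis, deposited log2 scale, 1 array per line) of the 15 genes with the largest higher and the 15 with the largest lower difference. Open circles are LACZ, filled circles ZEB2 and grey marks the other 3 factor arrays, and the dotted line is the floor of 4.72; MAL2 runs from 17.39 on LACZ to 4.21 on ZEB2 and UCHL1 from 4.11 to 14.39.

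Matrix genes were among those with the largest higher differences. Of 51 measured glycoproteins and proteoglycans 11 were higher and 2 lower, but only 29 of the 51 reached the floor, and the median over all was 0.16. NID1, the basement membrane protein nidogen, went from 3.19 to 11.96 and ABI3BP, a matrix-binding protein, from 4.61 to 12.95. The proteoglycan versican, VCAN, went from 3.93 to 10.57, with 2.88 on FOXQ1. FBN2, a fibrillin of elastic microfibrils, went from 5.29 to 10.8 and lay between 8.11 and 8.24 on the other 3 factor arrays. SPOCK1, a testican proteoglycan, differed by 4.63, SPARC, a collagen-binding glycoprotein, by 3.59 and FN1, fibronectin, by 2.11. The lower members were MATN2, a matrilin, at -3.45 and TINAGL1, a basement membrane protein, at -3.03.

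Of 24 measured collagen genes 6 were higher and none was lower, and 9 reached the floor. COL8A1, a short-chain network collagen of vessel walls, went from 6.6 to 14.1 and had 6.92 on FOXQ1, 12.03 on SNAI1 and 11.98 on TWIST1. COL1A2, a chain of fibrillar collagen, went from 7.32 to 11.88, a difference of 4.56, or 2.62 with the median of its probe sets. COL5A2 and COL6A3 differed by 2.5 and 2.3, and both had lower levels on ZEB2 than on the other 3 factor arrays. Collagen cross-linking and processing enzymes were higher in 8 of 14 measured members and lower in none, with a median of 1.29. Of these 14 members 11 reached the floor. LOX, lysyl oxidase, went from 8.19 to 13.21, and P3H1, a prolyl hydroxylase, from 8.11 to 12.44. The lysyl hydroxylases PLOD2 and PLOD1 differed by 2.3 and 1.83.

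Among 40 measured extracellular proteases and inhibitors 13 were higher and 4 lower. Of the 40 genes 28 reached the floor, where 11.9% of all genes were higher and 8.05% lower. CPA4, a carboxypeptidase, went from 4.97 to 9.97 and SERPINE2, an inhibitor of thrombin and urokinase, from 6.58 to 10.77. MME, a membrane metalloprotease of basal mammary cells, went from 6.74 to 9.92. CTSS, a lysosomal cathepsin, went from 7.72 to 4.37 and SERPINB1, an inhibitor of neutrophil proteases, from 9.84 to 7.27. The other lower members were TFPI2 at -2.19 and SERPINI1 at -1.05.

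Integrins were split between 3 higher and 3 lower of 10 measured subunits. Of the 10 subunits 9 reached the floor, where 11.9% of all genes were higher and 8.05% lower. ITGA2, a collagen receptor subunit, went from 12.22 to 9.49 and ITGB8, a partner in TGF-beta activation, from 9.4 to 7.44. ITGB6, of epithelial cells, differed by -5.76, but by 0.22 with the median of its 3 probe sets, so its direction depended on the probe set. ITGA4, ITGB5 and ITGA10 were higher by 1.54, 1.36 and 1.82. In the cadherin and related list 5 of 25 measured members were higher and 3 lower, and E-cadherin was not among the 25. Only 11 of the 25 reached the floor. CADM3, a nectin-like molecule of neurons, went from 4 to 13.99 and CDH18, a cadherin of the nervous system, from 5.48 to 13.74. The large cadherin FAT4 differed by 4.91 and PCDH7 by 3.28, while FAT2, an epithelial relative, differed by -3.2.

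Actin-binding and contractile genes were higher in 10 of 27 measured members and lower in 2. Of the 27 members 23 reached the floor, where 11.9% of all genes were higher and 8.05% lower. PDLIM5, an adaptor of stress fibres, went from 12.22 to 14.68 and CALD1, caldesmon, from 11.68 to 13.89. PALLD, palladin, differed by 1.68 and FHL2, a LIM protein, by 2.21. ACTG2, smooth muscle actin, was at 5.62 and 6.68. PLS1, the bundling protein of microvilli, went from 10.1 to 8.06. SORBS2, an adaptor of focal adhesions, differed by -1.95, or 0.4 with the median of its 3 probe sets.

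**Figure D4:**
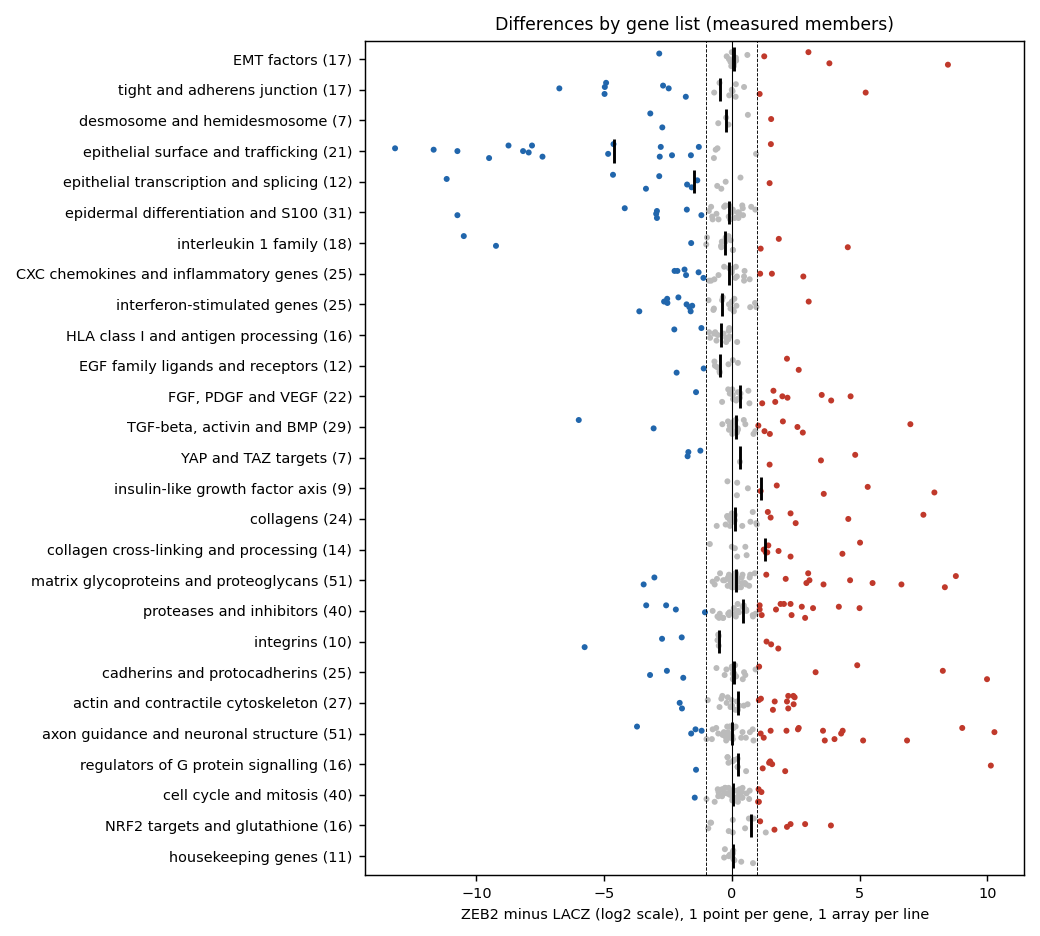
ZEB2 minus LACZ difference (x axis, log2 scale) of each measured member of 27 gene lists, with the number of members in brackets and the list median as a black bar. Red points are called higher, blue lower and grey neither, and the dashed lines mark a difference of 1. The epithelial surface list has the lowest median, -4.63, and the collagen cross-linking list the highest, 1.29. Lists were chosen with earlier results of these data known.

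Neuronal genes held some of the largest higher differences. Of 51 measured axon guidance and neuronal structure genes 15 were higher and 4 lower, and the list median was 0.02. The floor was reached by 31 of the 51, and of all genes there 11.9% were higher and 8.05% lower. UCHL1, a deubiquitinating enzyme of neurons, went from 4.11 to 14.39. Its levels were 4.34 on FOXQ1, 7.75 on SNAI1 and 10.58 on TWIST1. NREP, a neuronal regeneration protein, went from 6.62 to 15.64 and MAP1B, a microtubule protein of growing axons, from 8.72 to 15.58. The collapsin response genes DPYSL2 and DPYSL3 differed by 4.28 and 4.02 and the guidance ligands SLIT3 and SLIT2 by 4.34 and 3.64. SEMA3A, a repulsive ligand, differed by -3.71, or -0.43 with the median of its probe sets, and its receptor NRP2 by -1.59. Of 9 measured neuron markers only UCHL1 and MAP2 were called, and 3 of the 9 reached the floor on each array.

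Growth factor genes of the FGF, PDGF and VEGF list were higher in 8 of 22 measured members and lower in 1. Of these 22 members 15 reached the floor. FGFR1, a fibroblast growth factor receptor, went from 3.02 to 7.67 and its ligand FGF2 from 11.32 to 14.84. PDGFC differed by 3.89 and its relative's receptor PDGFRB by 1.98. VEGFC, a lymphatic growth factor, went from 11.57 to 13.75, while VEGFA, the main angiogenic ligand, went from 11.86 to 10.46. In the EGF family 2 of 12 were higher and 2 lower. Of the 12 genes 9 reached the floor, where 11.9% of all genes were higher and 8.05% lower. EREG and EPGN, ligands of the EGF receptor on chromosome 4, went from 6.79 to 9.41 and from 7.21 to 9.37. TGFA, another ligand, went from 7.2 to 5.04 and the receptor EGFR from 11.97 to 10.87.

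In the TGF-beta, activin and BMP list 7 of 29 measured members were higher and 2 lower. Of the 29 members 16 reached the floor, where 11.9% of all genes were higher and 8.05% lower. LTBP1, which holds latent TGF-beta in the matrix, went from 4.9 to 11.89. The BMP targets ID2 and ID3, which block helix-loop-helix factors, differed by 2.57 and 2.78. INHBA, the activin subunit, went from 13.59 to 10.53, and the activin antagonist follistatin, FST, from 13.16 to 7.17. Activin subunit and antagonist were thus both lower.

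The insulin-like growth factor axis was higher in 5 of 9 measured members and lower in none, with a median of 1.13. Of the 9 members 7 reached the floor. IGFBP3, the main carrier of these factors, went from 8.01 to 15.94 and IGFBP2, another carrier, from 5.75 to 11.07. IRS1, the adaptor of the receptor, went from 4.83 to 8.43. IGFBP7 was at 13.89 and 14.52, and IGFBP5 was below the floor on both arrays.

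Of 8 measured hedgehog genes HHIP, which binds and blocks the ligands, went from 6.39 to 14.89, and apart from HHIP and GLI2 none was called. WNT genes were mostly near the bottom of the scale, with 10 of 30 at the floor, of which 1 was higher and 2 were lower. Over all genes at the floor these shares were 11.9% and 8.05%. SFRP1, a secreted WNT antagonist, went from 11.63 to 5.22, the receptor FZD3 differed by -2.1, and ROR1, a receptor of noncanonical WNT signals, went from 10.03 to 12.68. Of 7 measured YAP and TAZ targets, all at the floor, 3 were higher and 3 lower. CCN2, a matricellular protein, went from 8.62 to 13.45, CRIM1 from 11.32 to 14.81, and F3, tissue factor, from 14.96 to 13.23. RGS genes, which switch off G protein signals, were higher in 6 of 16, and 10 of the 16 reached the floor. RGS4 went from 3.75 to 13.89 and RGS5, its neighbour, from 5.28 to 7.37, while RGS20 differed by -1.4. The receptor tyrosine kinase ROS1 went from 2.94 to 9.74. Feedback and immediate early genes were balanced, 5 of 20 higher and 5 lower, with the phosphatase DUSP1 at 4.01 and IER3 at -2.4. Of the 20 genes 18 reached the floor.

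Of 40 measured cell cycle genes 4 were higher and 1 lower, and the list median was 0.04. All 40 reached the floor, so the higher count is near the 11.9% of all genes there. The lower count is under the 8.05%. All 4 higher ones, KIF20A, NUF2, CDC20 and KIF15, lay between 1.03 and 1.16, and all but KIF20A were under 1 after quantile normalization. PLK2, a stress-responsive kinase, differed by -1.45. Antioxidant genes were higher in 6 of 16 and lower in none, and 12 of the 16 reached the floor. GSTA4, which detoxifies lipid peroxides, went from 5.77 to 9.65 and GPX8, a peroxidase of the endoplasmic reticulum, from 11.21 to 14.08. In the hypoxia list 5 of 17 were higher and 2 lower, but the list median was -0.26, and 16 reached the floor. The higher members LOX and P4HA2 are also in the collagen enzyme list. VEGFA, a lower member, differed by -1.4. The glycoprotein hormones STC2 and STC1 differed by 3.43 and 2.53 and EPAS1, a hypoxia-inducible factor, by 2.21, whereas NDRG1, a stress-responsive gene, differed by -3.2. Cholesterol genes were higher in 1 of 11, PMVK at 1.14, and 10 of them reached the floor. That count too is near the 11.9% higher among all genes at the floor. Of 40 measured homeobox genes 14 reached the floor, and 2 of these were higher, PRRX1 and DLX1, a share near the 11.9% of all genes at the floor. None of 11 housekeeping genes was called, and their median was 0.05.

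Markers of other cell types were measured beside these groups. Of 13 leukocyte markers 3 reached the floor on each array and the highest level was 6.18 on LACZ and 5.49 on ZEB2. LAPTM5 was the 1 that was called, at 6.18 and 3.78. CD14 was at 3.72 and 3.68. Of 11 endothelial markers 1 reached the floor on each array, and KDR was at 3.61 and 3.95. The stromal fibroblast markers, 9 measured, reached the floor in 5 cases on LACZ and 7 on ZEB2, with 2 higher and PDPN lower, by 1.78 on the log2 scale. The 2 higher were COL1A2, at 7.32 and 11.88, and PDGFRB, at 4.81 and 6.79, and the list median was 0.65. Among the members not called FAP was at 9.47 and 10.3, PDGFRA at 4.54 and 5.19 and DPT at 4.63 and 5.19. Among 7 pericyte and smooth muscle markers 3 were higher, RGS5, PDGFRB and ACTG2, the last by 1.06, or 0.99 after quantile normalization. The 5 neural crest and glial markers had 1 member at the floor, MITF, at 5.64 and 6.66, a difference of 1.02, or 0.95 after quantile normalization. The part of other cells in the matrix and neuronal differences was not tested.

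Genes that set ZEB2 apart from all 4 other arrays were fewer. A gene was counted when it was called against LACZ and also lay at least 2-fold beyond each of the other factor arrays in the same direction. There were 87 such genes on the higher side, 0.583% of those analysed, and 27 on the lower side, 0.181%. IGFBP3 stood furthest above, at 15.94 on ZEB2 and 11.73 on TWIST1, the next array, a gap of 4.21. UCHL1 followed with a gap of 3.81. QRFPR, a neuropeptide receptor, was at 12.08 on ZEB2 and 8.66 on LACZ, and at 5.36, 6.92 and 7.19 on FOXQ1, SNAI1 and TWIST1. It was thus higher on ZEB2 and lower on the others, all against the same control array. ESM1, the proteoglycan endocan, was at 10.51 on ZEB2 and between 6.33 and 7.27 elsewhere. FBN2, ZNF804A, PDLIM2, a PDZ and LIM protein, and the pseudogene DPY19L2P1 completed the 8 furthest above, with gaps from 2.43 to 2.76. PDLIM2 lies between 10 and 40 Mb of chromosome 8, and ESM1 and FBN2 lie on chromosome 5. The median differences of these regions were 0.57 and 0.24, and their part in the gaps was not tested.

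The gene furthest below the other arrays was KRABD1, at 5.52 on ZEB2 and between 8.61 and 10.39 elsewhere. MAN1A1, a Golgi mannosidase, was at 7.98 on ZEB2 and between 10.12 and 11.25 elsewhere. HOXA10-AS, a noncoding RNA of the HOXA cluster, was at 4.36 against 6.47 to 7.01. RNU5D-1, a U5 spliceosomal RNA, was at 5.4 against 7.49 to 8.34. PTPRU, a receptor phosphatase of cell contacts, was at 4.45 against 6.43 to 7.82. The others of the 8 were SORBS2, LAPTM5, a lysosomal protein, and TENT5A, a nucleotidyltransferase, with gaps of 1.95, 1.89 and 1.84. For SORBS2 the direction depended on the probe set, as given above.

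**Figure D5:**
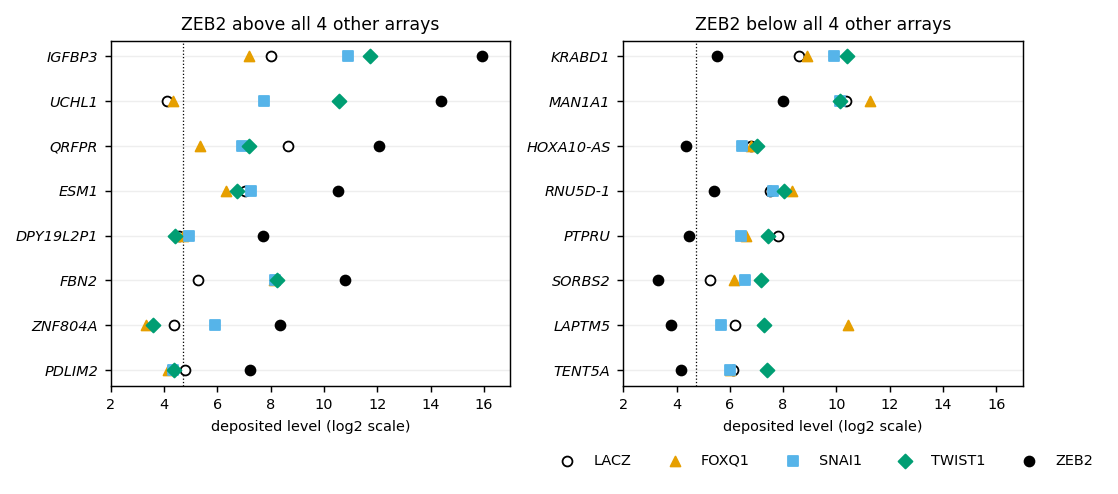
Levels on all 5 arrays (x axis, deposited log2 scale) of the 8 genes for which ZEB2 lay furthest above and the 8 for which it lay furthest below the nearest other array. Filled circles are ZEB2, open circles LACZ, and the dotted line is the floor of 4.72; IGFBP3 has the widest gap, 4.21, and KRABD1 the widest on the lower side, 3.09.

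Shares of called genes were given by kind of gene. Of 5180 protein-coding genes at the floor 15.6% were higher and 9.46% lower. The shares were 12.6% and 9.05% of 420 long noncoding RNA genes and 3.46% and 4.05% of 1852 pseudogenes. Antisense genes were set beside the gene they are named for. Among 139 such pairs with both genes at the floor 13 were called higher together, 6 lower together and 1 in opposite directions. Only the sense gene was called in 24 pairs and only the antisense gene in 12. Over all genes at the floor 11.9% were higher and 8.05% lower, and the number of pairs expected to be called together was not computed. VCAN-AS1 differed by 6.14 beside VCAN at 6.64, NR2F1-AS1 by 6.61 beside NR2F1, an orphan nuclear receptor, at 5.87, and HHIP-AS1 by 5.36 beside HHIP at 8.5. Pairs with only 1 gene called included STARD4-AS1 at 5.77 beside STARD4 at 0.85, and ROR1 at 2.65 beside ROR1-AS1 at 0.47. In the pair called in opposite directions PTPRG, a receptor phosphatase, differed by 3.27 and PTPRG-AS1 by -1.01. Whether the probes separate the strands is not given in the sources used here, so signal of such a pair may not be separable. This count was chosen after values were seen.

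Higher and lower genes were unevenly spread over the chromosomes. On chromosome 5 17.3% of 813 genes at the floor were higher and 5.54% lower, while on chromosome 6 7.18% of 975 were higher and 11.5% lower. On chromosome 8 both shares were large, 16.6% and 14.5% of 614. Medians over windows of 10 Mb that held at least 15 genes at the floor ranged from -0.73 to 0.94 in 158 windows, with quartiles of -0.09 and 0.17. The 3 windows between 10 and 40 Mb of chromosome 8 held 160 genes, of which 60 were higher and 5 lower, and their median was 0.57. From 50 to 110 Mb of the same chromosome 222 genes had a median of -0.43, with 14 higher and 54 lower. The same stretches had medians of 0.28 and -0.4 on FOXQ1, 0.11 and -0.55 on SNAI1 and 0.27 and -0.22 on TWIST1, all against the shared LACZ array. All 18 windows of chromosome 5 had a median above 0 on ZEB2, as did 91 of the 158 windows overall. On FOXQ1, SNAI1 and TWIST1 1, 0 and 8 of these 18 were above 0. DNA copy number was not measured, and its part in these shifts was not tested. The windows and regions were chosen after values were seen.

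Neighbouring genes called in the same direction formed 35 higher and 11 lower runs of at least 3 genes at the floor. They held 117 of the 955 higher and 38 of the 644 lower genes. Of all genes at the floor 11.9% were higher and 8.05% lower, and the number of runs expected from these shares was not computed. Some runs count a gene and its antisense gene, such as CADM3 and CADM3-AS1, whose signals may not be separable. The longest run held 7 higher genes on chromosome 8 (38176855 to 38468635). These were BAG4, an inhibitor of death receptor signals, DDHD2, a lipase, PLPP5, a lipid phosphatase, NSD3, a histone methyltransferase, LETM2, FGFR1 and the pseudogene RPS20P22. Their differences ran from 1.14 for DDHD2 to 4.65 for FGFR1, and PLPP5 was at 10.74 on ZEB2 and between 7.51 and 8.52 on the other arrays. Another run of higher genes, on chromosome 1 (159171615 to 159206500), held CADM3, CADM3-AS1, ACKR1, an atypical chemokine receptor, and a 5S ribosomal RNA pseudogene. ACKR1 went from 3.17 to 10.5. A further run of 4 on the same chromosome (162851020 to 163355759) held CCDC190, RGS4, RGS5 and NUF2.

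The longest lower runs had 5 genes each, both on chromosome 6. The first (46652975 to 47309905) held SLC25A27, TDRD6, PLA2G7, ADGRF1 and TNFRSF21, of which the death receptor gene TNFRSF21 went from 10.47 to 6.27. The other (137866349 to 138693212) held TNFAIP3, an inhibitor of NF-kB signalling, PERP, ARFGEF3, HEBP2 and NHSL1. TNFAIP3 went from 12.41 to 10.17. A run of 4 on chromosome 1 (84643706 to 85048500) held SSX2IP, LPAR3, a receptor for lysophosphatidic acid, MCOLN2 and MCOLN3, endolysosomal channels. LPAR3 went from 11.83 to 7.22 and MCOLN3 from 8.46 to 3.51.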

How the data were processed

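The authors deposited 1 table of log2 values, made with the Transcriptome Analysis Console on hg38, per the submitters' processing notes. The version, array model and normalization are not given in the sources used here, and the log base is read from the values, which run from 1.99 to 19.73. No intensities or detection calls were used, so precision is limited by the number of arrays, 1 per line.

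Of 65521 probe sets 16126 had 1 symbol, 419 several and 48976 none. RefSeq (GRCh38.p14) supplied the positions, and 560 probe sets with no match on their chromosome were left out. Where a gene had several probe sets, the brightest by its mean on the 5 arrays was used. Calls needed a 2-fold difference and a level of 4.72 on either array. Named genes were the EMT factors, the 15 largest differences and the 8 largest gaps per direction, list members and the longest runs. The members and lists were chosen with earlier results of these data known. Alternatives were other scalings, floors, folds and the median of probe sets. Work was done in pandas 2.3.3 and numpy 2.4.6 under Python 3.11.15, with loess from statsmodels 0.14.6 and plots from matplotlib 3.10.9.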

Additional observations from a re-analysis of the deposited data

Results flagged for a closer look

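QRFPR was 3.42 higher on ZEB2 than on LACZ, while its level on each of the other 3 factor arrays was lower than on LACZ by 1 or more on the log2 scale. The difference between the lines was not tested, since each had 1 array. Outside the named genes, 1389 probe sets with no symbol were 2-fold or more higher on ZEB2 with the floor, and 971 were lower, of 16440 at the floor on either array.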

How the results depend on the processing

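No paired analysis was possible because each line had 1 array. The counts of genes higher, lower, apart above and apart below were 955, 644, 87 and 27. With the floor at percentile 75 they were 626, 370, 53 and 13, at 3-fold 439, 306, 24 and 9, and at 1.5-fold 1795, 1334, 322 and 87. These changes follow from stricter or looser limits. Under quantile normalization, centring, loess, no floor and the median of probe sets each count stayed within 1.5 times the main one. Quantile normalization gave 847 higher and 715 lower, so 54.2% of called genes were higher, against 59.7%. Of 257 named genes 2 changed direction with the median of probe sets, ITGB6 at 0.22 and SORBS2 at 0.4, and 7 came under 2-fold, GLI2, TRPS1, IL1RAP, P4HA2, CTSB, SEMA3A and CRMP1; quantile normalization brought 7 others under 2-fold, CLDN12, TGFBI, ACTG2, CDC20, NUF2, KIF15 and MITF, all between 0.92 and 0.99. The median of housekeeping genes was -0.02 under quantile normalization. The chromosome 8 window medians of 0.94 and -0.73 ran from 0.63 to 1.35 and from -0.76 to -0.57 under alternatives chosen after seeing the data. Signal over background was not measured, which limits genes near the floor.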

Other observations

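Apart from the miR-200 genes, small noncoding RNAs were not in the lists. Among 4 measured vault RNAs, VTRNA2-1 was at 7.07 on LACZ and 9.72 on ZEB2, VTRNA1-3 at 8.79 and 10.33, and VTRNA1-1 at 3.73 and 5.28. VTRNA1-2 differed by 1.28 with both arrays below the floor. Of 41 small nucleolar RNA genes at the floor 3 were higher and 6 lower, 7.32% and 14.6%, against 11.9% and 8.05% of all genes at the floor, with SNORA5A at 11.26 on LACZ and 7.74 on ZEB2. Of 216 microRNA genes at the floor 4.63% were higher and 6.48% lower. Of 21 small nuclear RNA genes at the floor 1 was higher, RNVU1-15 at 1.24, and 3 were lower. The lower ones were U5 genes. RNU5D-1, RNU5E-1 and RNU5F-1 differed by -2.09, -1.49 and -2.45. These genes were chosen after their values were seen.

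Among the 560 probe sets left out for lack of a match, 13 were 2-fold or more higher on ZEB2 and 17 lower, with the floor.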
